A study of Homo sapiens with 8 samples.

Results

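The 43 genes described here carry cells through mitosis and cytokinesis, and their messenger RNA was measured in SET-2 cells with or without a guide RNA against ZRSR2. They were chosen by name from a list that spans the cyclin-dependent kinase switch, the mitotic kinases, the chromosomal passenger complex, the spindle checkpoint, the kinetochore, anaphase, the spindle, chromosome condensation and cytokinesis. All 43 were found among the 25435 gene symbols of the table, and all 43 were among the 14898 genes with enough reads to be tested. SET-2 is a human megakaryoblastic leukaemia line with an activating JAK2 mutation, and ZRSR2 is a protein of the minor spliceosome that helps to recognise the 3′ splice site of U12-type introns. All 8 libraries came from this 1 line, grown in the same medium, after transduction with a GFP-marked lentiviral vector that carried 1 guide RNA. The 4 ZRSR2 knockout libraries (labelled ZRSR2 KO) carried guide sg1 or sg2 against ZRSR2, and the 4 control libraries carried non-targeting guide sg1 or sg2. Each guide was used once in experiment 1 and once in experiment 2. The library numbers follow this order: 1 and 2 stand for guides sg1 and sg2 in experiment 1, and 3 and 4 for the same guides in experiment 2. RNA was taken 20 days after transduction for the first biological replicate and 25 days after it for the second, and whether these are experiments 1 and 2 is not stated outright. Single-cell clones, sorting for GFP and the source of Cas9 are not given in the sources used here, and no library of cells without a vector was analysed.

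Mitosis begins when cyclin B with CDK1 is switched on by the CDC25 phosphatases, and it ends when the anaphase-promoting complex, led by CDC20, marks cyclin B and securin for destruction. In between, Aurora and Polo kinases build the spindle, the checkpoint kinases BUB1 and TTK delay anaphase until every kinetochore is attached, and condensins with topoisomerase II compact the chromosomes. Many of these genes are transcribed late in the cell cycle, under MuvB complexes with MYBL2 and FOXM1 that bind a promoter element called the CHR, often beside CCAAT boxes bound by NF-Y. Megakaryocytic cells are known for endomitosis, in which cycles of DNA synthesis go on without complete cytokinesis.

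Library totals ran from 31106042 to 71521173 expected counts, and the member of fewest counts in a library still had between 174 and 576. Levels are given as CPM, counts per 1000000 counts of a library after TMM scaling; they are not divided by transcript length, so levels of different genes are not ranked against each other. ZRSR2 itself measured 29.4, 22.9, 28.3 and 18.7 CPM in knockout libraries 1 to 4 and 37.9, 39.2, 39.7 and 41.1 CPM in non-targeting libraries 1 to 4. No knockout library reached the control range, yet the fitted log2 fold change of −0.67 (SE 0.148) had an adjusted p of 1.00 with genotype alone and 0.275 with the experiment as a block in edgeR, so the label was met in direction by a gene still read in every knockout library. The megakaryoblast markers ITGA2B (2085 to 2708 CPM) and GATA1 (241 to 306 CPM) were high, whereas PF4 stayed between 1.098 and 3.03 CPM and GP1BB was at 0. The labels do not say that libraries came from separate cultures, so a p-value measures only the spread between these 8 libraries. Since the RNA is from bulk cells, fewer cells in mitosis and less RNA of these genes per cell cannot be told apart.

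The promoters of the members were read first, because the CHR element is a feature that the choice of members did not use. Windows from 250 bases before to 50 bases after a start site were taken from RefSeq (GRCh38.p14) and searched on both strands for the CHR, counted as TTTGAA or TTCGAA, and for CCAAT. An entry was matched for 37 members, with 49 promoters in all; UBE2C, AURKA, BUB3, TPX2, BIRC5 and TTK had none matched. The 4 promoters below are shown from 200 bases before to 20 bases after the start, 5′ to 3′ on the strand of the gene, because they hold both motifs and belong to members that behaved differently between the experiments described below, from PLK1, whose level hardly differed, to BUB1, with the largest increase. Capitals mark the CHR and CCAAT, or ATTGG, its reverse complement.
PLK1, chr16:23678689-23678908, plus strand: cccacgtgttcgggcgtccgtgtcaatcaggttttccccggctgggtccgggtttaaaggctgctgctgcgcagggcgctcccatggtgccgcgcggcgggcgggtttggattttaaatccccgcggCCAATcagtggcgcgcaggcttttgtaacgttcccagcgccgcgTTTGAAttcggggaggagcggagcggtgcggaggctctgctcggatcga
PRC1, chr15:90994516-90994735, minus strand: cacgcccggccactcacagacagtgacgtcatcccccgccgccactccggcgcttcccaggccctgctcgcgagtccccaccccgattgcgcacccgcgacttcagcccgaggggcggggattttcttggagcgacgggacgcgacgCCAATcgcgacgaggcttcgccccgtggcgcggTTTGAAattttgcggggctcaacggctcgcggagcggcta
CENPA, chr2:26785856-26786075, plus strand: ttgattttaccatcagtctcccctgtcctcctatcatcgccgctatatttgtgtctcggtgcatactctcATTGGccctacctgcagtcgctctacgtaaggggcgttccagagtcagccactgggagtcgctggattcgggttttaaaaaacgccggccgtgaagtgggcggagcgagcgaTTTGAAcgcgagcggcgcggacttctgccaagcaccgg
BUB1, chr2:110678044-110678263, minus strand: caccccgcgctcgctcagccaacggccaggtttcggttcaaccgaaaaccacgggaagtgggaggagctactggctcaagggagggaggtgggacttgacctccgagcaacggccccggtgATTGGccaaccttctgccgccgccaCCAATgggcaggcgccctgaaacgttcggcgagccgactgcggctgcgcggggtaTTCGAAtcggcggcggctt

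In PLK1 the CHR began 29 bases before the start and its CCAAT began 73 bases before it. The PRC1 promoter held TTTGAA 20 bases before the start and CCAAT 53 bases before it. CENPA had TTTGAA 18 bases before the start with its CCAAT only on the opposite strand, and BUB1 had TTCGAA just after the start with a CCAAT on either strand upstream. The spacing thus differed between promoters, while each carried a CHR within 50 bases of the start.

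Over the members, 31 of 49 promoters (63.3%) held a CHR, against 5742 of 35116 (16.4%) among all promoters of the table. Of a list of 42 DNA replication genes, which are transcribed earlier in the cycle, 37 were matched, and 2 of their 48 promoters (4.17%) held one. Of a list of 105 other mitotic genes 87 were matched, and 48 of their 118 promoters (40.7%) held one. CCAAT was present in 34 of 49 member promoters (69.4%), 34.6% of all promoters and 58.3% of replication promoters. A CHR on the gene's own strand between 50 bases before and 10 bases after the start was found in 17 of 49 member promoters (34.7%) and in 1.87% of all. A match is a run of letters and not a bound site, several genes have more than 1 window, and promoters of 1 gene are not independent.

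**Figure D1:**
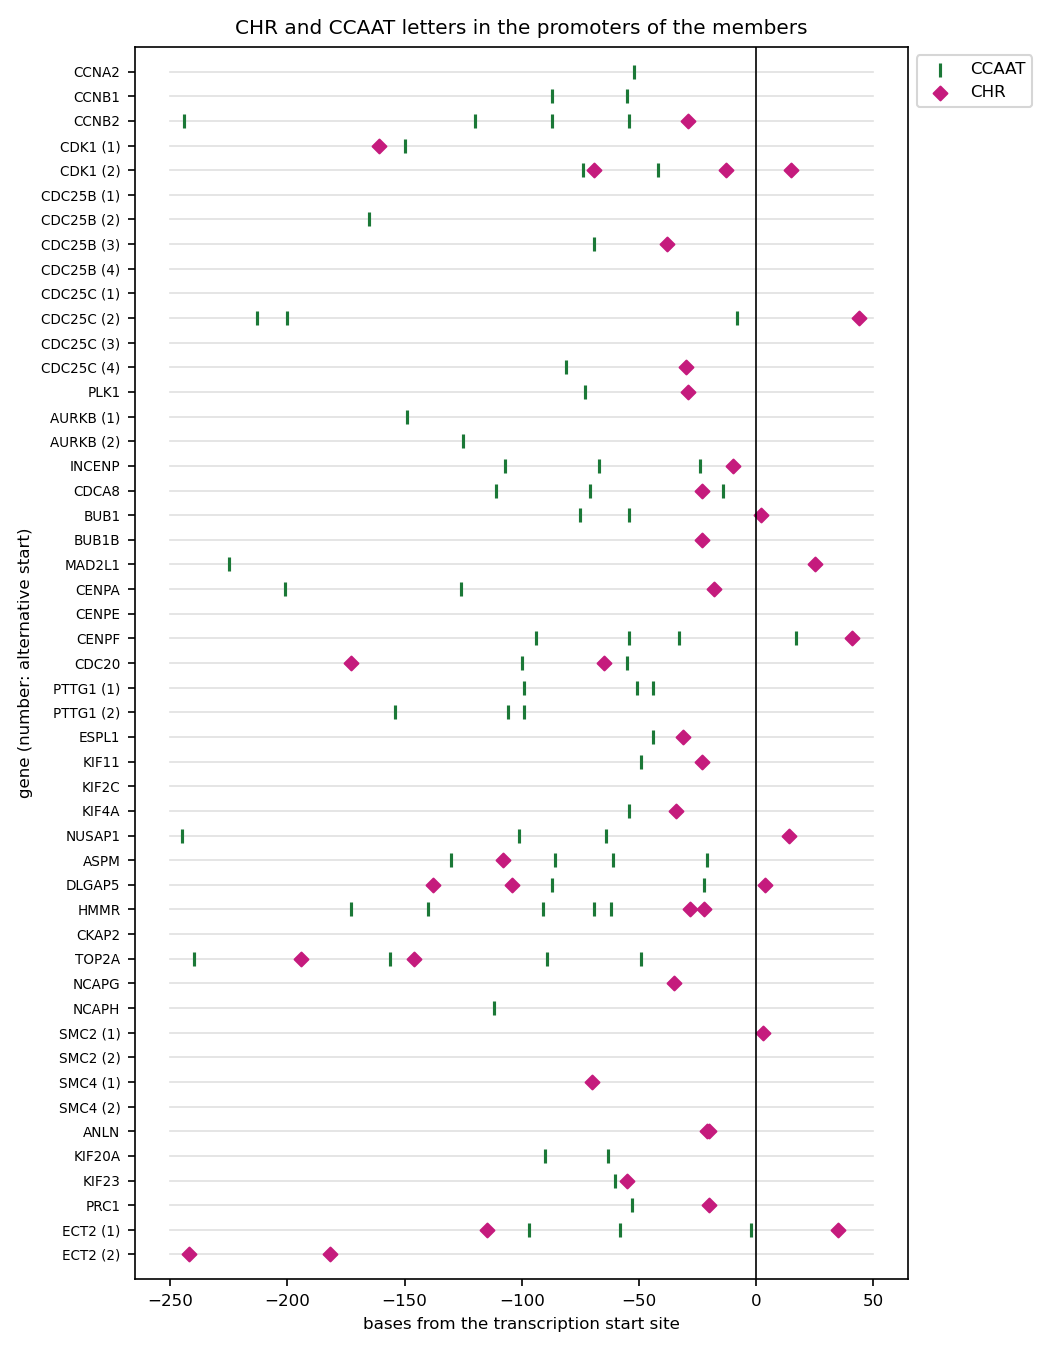
Position of the CHR (diamonds) and CCAAT letters (ticks) in each of the 49 member promoters (rows; numbers in brackets are alternative starts of 1 gene), in bases from the transcription start site (horizontal axis), each drawn at its first base as read on its own strand. Many diamonds lie within 50 bases of the start, as in PLK1, PRC1, CENPA and BUB1, with ticks further upstream, while KIF2C, CENPE and CKAP2 have neither.

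The largest differences among the members lay between the experiments. In experiment 2, 25 of the 43 members were higher than in experiment 1 and 2, CCNB1 and UBE2C, were lower (edgeR quasi-likelihood test, Benjamini-Hochberg adjusted p under 0.05). Of all tested genes, 29.6% were called higher and 28.6% lower, so calls were common in both directions, and the members' calls fell mostly in one. The members' median log2 fold change was 0.26, against 0.0035 over all tested genes, and 39 of 43 were above 0. All 4 libraries of experiment 2 lay above all 4 of experiment 1 for 19 members, where 28% of tested genes did so, and below for 2 members, CCNB1 and BUB3, where 28% did so. Day, culture and library preparation may all differ between the experiments and cannot be told apart. The summed CPM of the 43 members was 3631 to 3910 in experiment 1 and 4120 to 5092 in experiment 2.

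**Figure D2:**
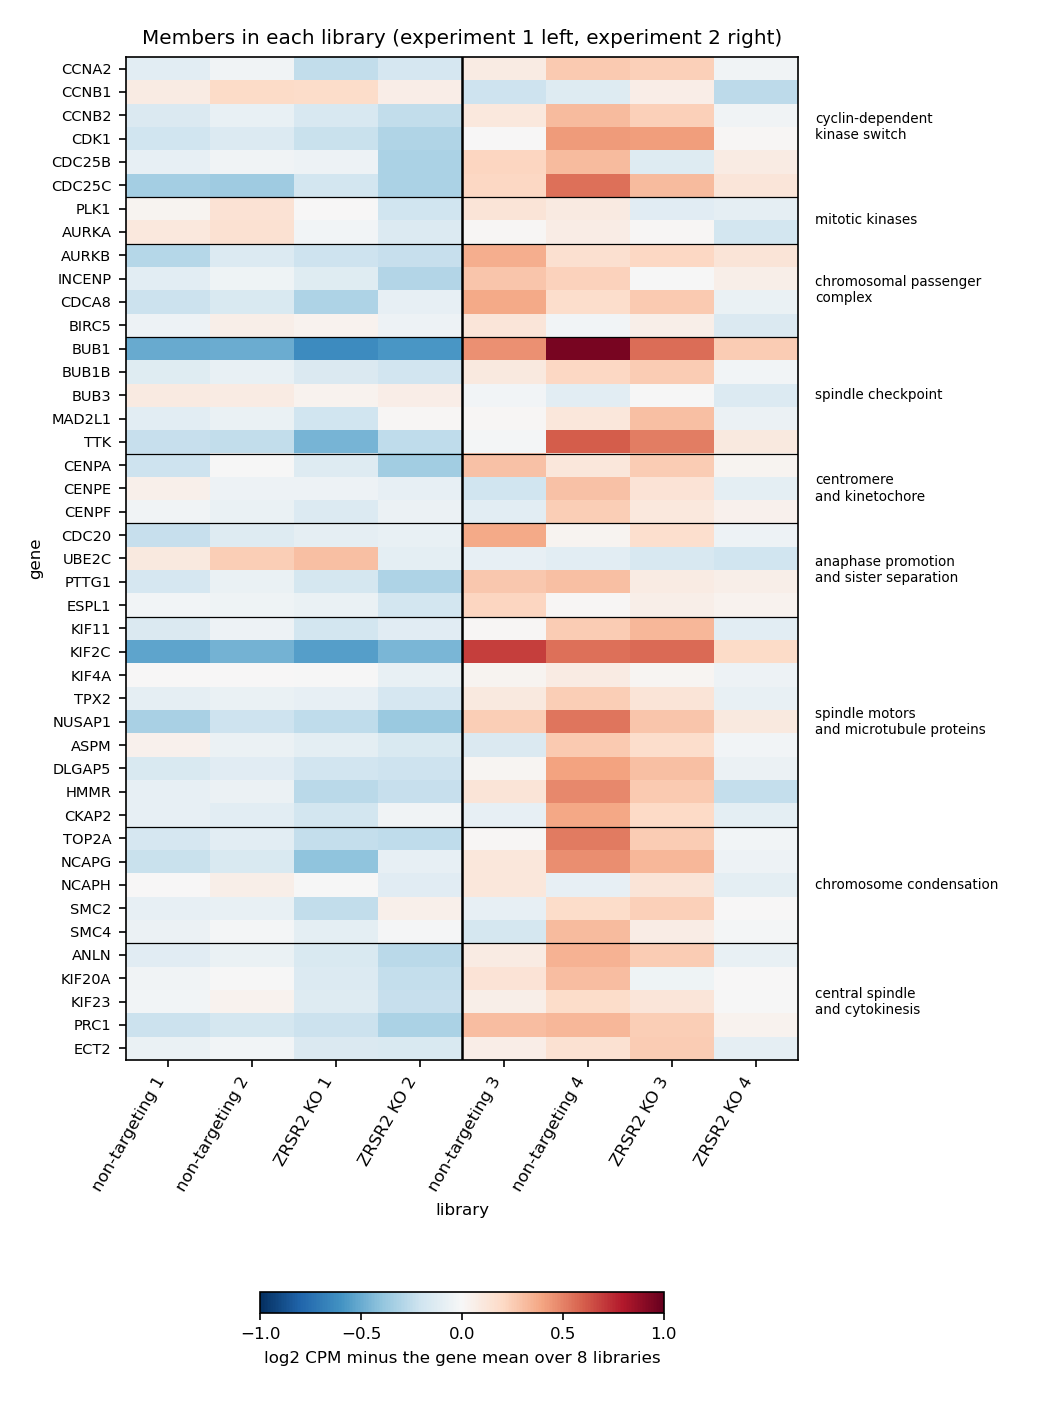
Level of each member (rows, grouped by role) in each library (columns, experiment 1 left and experiment 2 right), as log2 CPM minus that gene's mean over the 8 libraries. BUB1, KIF2C, NUSAP1 and TTK turn from blue to red between the experiments, while PLK1, BIRC5 and KIF4A stay pale and UBE2C and CCNB1 go the other way.

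All 6 members of the cyclin-dependent kinase switch passed the test, 5 higher and 1 lower. Values are given throughout in the order knockout guide 1, knockout guide 2, non-targeting guide 1, non-targeting guide 2. CDK1, the kinase itself, measured 44.5, 42.4, 45.3 and 47.2 CPM in experiment 1 and 69.5, 52.6, 52.3 and 70.1 CPM in experiment 2. Every library of experiment 2 was above every library of experiment 1, and within experiment 2 knockout guide 1 and non-targeting guide 2 stood highest. The log2 fold change of CDK1 was 0.45 (SE 0.113, adjusted p 0.0058). Its partner CCNB1 (cyclin B1) went the other way, with 55.9, 51.6, 52.0 and 56.2 CPM in experiment 1 and 51.5, 41.0, 42.5 and 44.8 CPM in experiment 2. The groups of CCNB1 nearly touched, since knockout guide 1 of experiment 2 lay just under the lowest library of experiment 1, and the log2 fold change was −0.26 (SE 0.0889, adjusted p 0.0253). CCNB2, the second B-type cyclin, rose by 0.32 (SE 0.085, adjusted p 0.00804) and CCNA2 (cyclin A2) by 0.28 (SE 0.0828, adjusted p 0.0137). The phosphatase CDC25C, which removes the inhibitory phosphates of CDK1, was low in all libraries, at 6.26, 5.72, 5.63 and 5.55 CPM in experiment 1 and 8.86, 7.73, 8.21 and 10.4 CPM in experiment 2. It rose by 0.60 (SE 0.123, adjusted p 0.0017) without overlap of the experiments. Its exons overlap those of FAM53C on the opposite strand, and without a stated strand setting reads of the 2 genes cannot be told apart. The same holds for CCNA2 and EXOSC9. CDC25B, which acts earlier, had the smallest change of the group: 96.6, 80.4, 94.3 and 97.4 CPM against 91.2, 106, 116 and 125 CPM. Here the knockout guide 1 library of experiment 2 fell among those of experiment 1, and the log2 fold change was 0.24 (SE 0.0832, adjusted p 0.0276).

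The kinases PLK1 and AURKA did not share in the increase. PLK1, the Polo kinase of mitotic entry and spindle assembly, measured 202, 175, 205 and 222 CPM in experiment 1 and 186, 189, 220 and 214 CPM in experiment 2. Its experiments overlapped throughout, with a log2 fold change of 0.0064 (SE 0.0704, adjusted p 0.945). AURKA, the Aurora kinase of centrosomes and spindle poles, had 74.2, 68.9, 81.7 and 84.2 CPM and then 76.5, 66.7, 76.4 and 79.6 CPM. Its log2 fold change was −0.044 (SE 0.0737, adjusted p 0.632).

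In the chromosomal passenger complex, which corrects faulty kinetochore attachments and later acts at the midzone, 3 of 4 members rose and none fell. AURKB, its kinase, measured 64.8, 63.7, 61.5 and 68.2 CPM in experiment 1 and 86.4, 81.9, 96.1 and 83.4 CPM in experiment 2. The experiments were well apart, and AURKB rose by 0.43 (SE 0.0763, adjusted p 0.000672). CDCA8 (borealin) rose by 0.38 (adjusted p 0.0044) and INCENP, the scaffold of the complex, by 0.28 (adjusted p 0.00513). BIRC5 (survivin), which docks the complex on the centromere, measured 104, 98.3, 97.9 and 106 CPM and then 106, 92.0, 111 and 99.6 CPM. Its experiments overlapped, with a log2 fold change of 0.0066 (SE 0.0766, adjusted p 0.948), so the subunits of 1 complex were not called alike; a difference between subunits was not tested.

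The spindle checkpoint held the largest increase of all members. BUB1, a kinase that marks the centromere and recruits checkpoint proteins to the kinetochore, measured 136, 141, 149 and 150 CPM in experiment 1 and 311, 252, 290 and 407 CPM in experiment 2. The mean went from 144 ± 6.28 to 315 ± 66.2 CPM (SD, n = 4 each), with no overlap between experiments and a wider spread in experiment 2. The log2 fold change of BUB1 was 1.12 (SE 0.108, adjusted p 1.24e-05). TTK, the MPS1 kinase that starts checkpoint signalling, rose from 14.99, 17.3, 17.6 and 17.4 CPM to 29.4, 22.1, 20.4 and 31.4 CPM, by 0.62 (SE 0.144, adjusted p 0.00375). BUB1B (BUBR1) rose by 0.27 (SE 0.0793, adjusted p 0.0131), and MAD2L1 (MAD2), which inhibits CDC20, was not called at 0.19 (SE 0.0986, adjusted p 0.124). BUB3, which carries BUB1 and BUBR1 to the kinetochore, measured 116, 119, 121 and 120 CPM in experiment 1 and 113, 103, 111 and 105 CPM in experiment 2. All of its experiment 2 libraries were lower, but the log2 fold change of −0.13 (SE 0.0666) missed the threshold (adjusted p 0.104).

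Of the 3 centromere and kinetochore members only CENPA, the histone H3 variant that defines centromeres, was called. It measured 25.1, 21.6, 23.8 and 27.4 CPM in experiment 1 and 32.7, 27.9, 33.6 and 29.7 CPM in experiment 2. All libraries of experiment 2 were higher, and CENPA rose by 0.34 (SE 0.0989, adjusted p 0.0117). Exons of CENPA overlap those of SLC35F6 on the same strand in GENCODE 29, so part of its reads could belong to that gene. CENPE, the kinesin that brings chromosomes to the spindle equator, measured 40.2, 39.3, 43.01 and 40.1 CPM and then 45.7, 38.7, 36.1 and 51.002 CPM. The log2 fold change of CENPE was 0.076 (SE 0.111, adjusted p 0.578), and its experiment 2 libraries lay on both sides of those of experiment 1.

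Genes of anaphase went both ways. CDC20, the activator of the anaphase-promoting complex, rose by 0.27 (SE 0.0881, adjusted p 0.0214), while UBE2C, the ubiquitin-conjugating enzyme that works with the same complex, was called lower. UBE2C measured 109, 82.3, 94.3 and 105 CPM in experiment 1 and 79.0, 76.9, 83.5 and 82.2 CPM in experiment 2. The knockout guide 2 library of experiment 1 was inside the range of experiment 2, and UBE2C fell by 0.28 (SE 0.091, adjusted p 0.0221). PTTG1 (securin), which holds separase inactive, measured 27.7, 25.3, 27.9 and 29.9 CPM and then 33.1, 32.6, 37.6 and 38.6 CPM, an increase of 0.36 (SE 0.0785, adjusted p 0.00265) without overlap. Separase itself, ESPL1, had 64.9, 59.97, 66.9 and 66.0 CPM and then 70.7, 69.8, 78.8 and 68.5 CPM. Its experiments did not overlap either, but the log2 fold change of 0.16 (SE 0.0745) was not called (adjusted p 0.0872).

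Among the 9 spindle motors and microtubule proteins, 6 rose, none fell and all had a log2 fold change above 0. KIF2C (MCAK), a kinesin that takes microtubule ends apart at the centromere, measured 157, 168, 160 and 166 CPM in experiment 1 and 342, 264, 374 and 338 CPM in experiment 2. Its mean rose 2.02-fold, from 163 ± 5.04 to 329 ± 46.3 CPM (SD, n = 4 each), with no overlap. The log2 fold change of KIF2C was 1.01 (SE 0.0878, adjusted p 6.59e-06). NUSAP1, which bundles spindle microtubules near chromosomes, measured 88.7, 81.9, 84.4 and 91.9 CPM and then 128, 114, 126 and 153 CPM, and rose by 0.58 (SE 0.0849, adjusted p 0.000182). DLGAP5 (HURP), HMMR, KIF11 (the motor that pushes spindle poles apart) and TPX2 (an activator of Aurora A) rose by 0.20 to 0.35, with adjusted p from 0.0169 to 0.0477. ASPM (0.14, adjusted p 0.248) and CKAP2 (0.22, adjusted p 0.11) were not called. KIF4A, a chromosome-bound kinesin, had the smallest change, at 75.3, 71.6, 75.6 and 75.7 CPM and then 76.4, 73.0, 77.0 and 80.1 CPM. The log2 fold change of KIF4A was 0.040 (SE 0.0667, adjusted p 0.63), and its 8 libraries spanned a narrow range. The close copy KIF4B had 400 counts over all libraries beside 25700 for KIF4A.

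For chromosome condensation, 2 of 5 members rose. TOP2A, the topoisomerase that untangles sister chromatids, rose by 0.40 (SE 0.106, adjusted p 0.00797). NCAPG, a subunit of condensin I, measured 33.7, 42.0, 38.2 and 40.1 CPM in experiment 1 and 56.0, 43.1, 48.3 and 61.4 CPM in experiment 2, an increase of 0.44 (SE 0.116, adjusted p 0.0077). All libraries of experiment 2 were higher, although knockout guide 2 only just so. NCAPH, the subunit that closes the ring of the same complex, measured 91.9, 85.0, 92.2 and 95.6 CPM and then 100, 85.9, 99.5 and 86.7 CPM. Its log2 fold change was 0.031 (SE 0.0803, adjusted p 0.757), with overlapping experiments. The core ATPases SMC2 (0.17, adjusted p 0.151) and SMC4 (0.10, adjusted p 0.389) were not called.

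In the central spindle and cytokinesis group, 3 of 5 members rose. PRC1, which bundles antiparallel microtubules of the midzone, measured 122, 113, 122 and 125 CPM in experiment 1 and 167, 145, 175 and 178 CPM in experiment 2. The experiments were well separated, with a log2 fold change of 0.46 (SE 0.0716, adjusted p 0.000275). ANLN (anillin), a scaffold of the contractile ring, rose by 0.31 (adjusted p 0.0153) and KIF20A (MKLP2), which brings the passenger complex to the midzone, by 0.21 (adjusted p 0.0327). KIF23 (MKLP1), the motor of centralspindlin, measured 51.2, 48.0, 55.2 and 57.4 CPM and then 61.1, 55.9, 58.4 and 63.8 CPM. The lowest library of its experiment 2 lay under the highest of experiment 1, and the log2 fold change of 0.18 (SE 0.0744) was not called (adjusted p 0.0607). ECT2, the exchange factor that activates RhoA at the cell equator, measured 19.7, 19.7, 20.9 and 21.5 CPM and then 26.1, 20.6, 22.9 and 24.3 CPM. One library of its experiment 2 lay within the range of experiment 1, and ECT2 was not called, at 0.20 (SE 0.0959, adjusted p 0.0955).

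**Figure D3:**
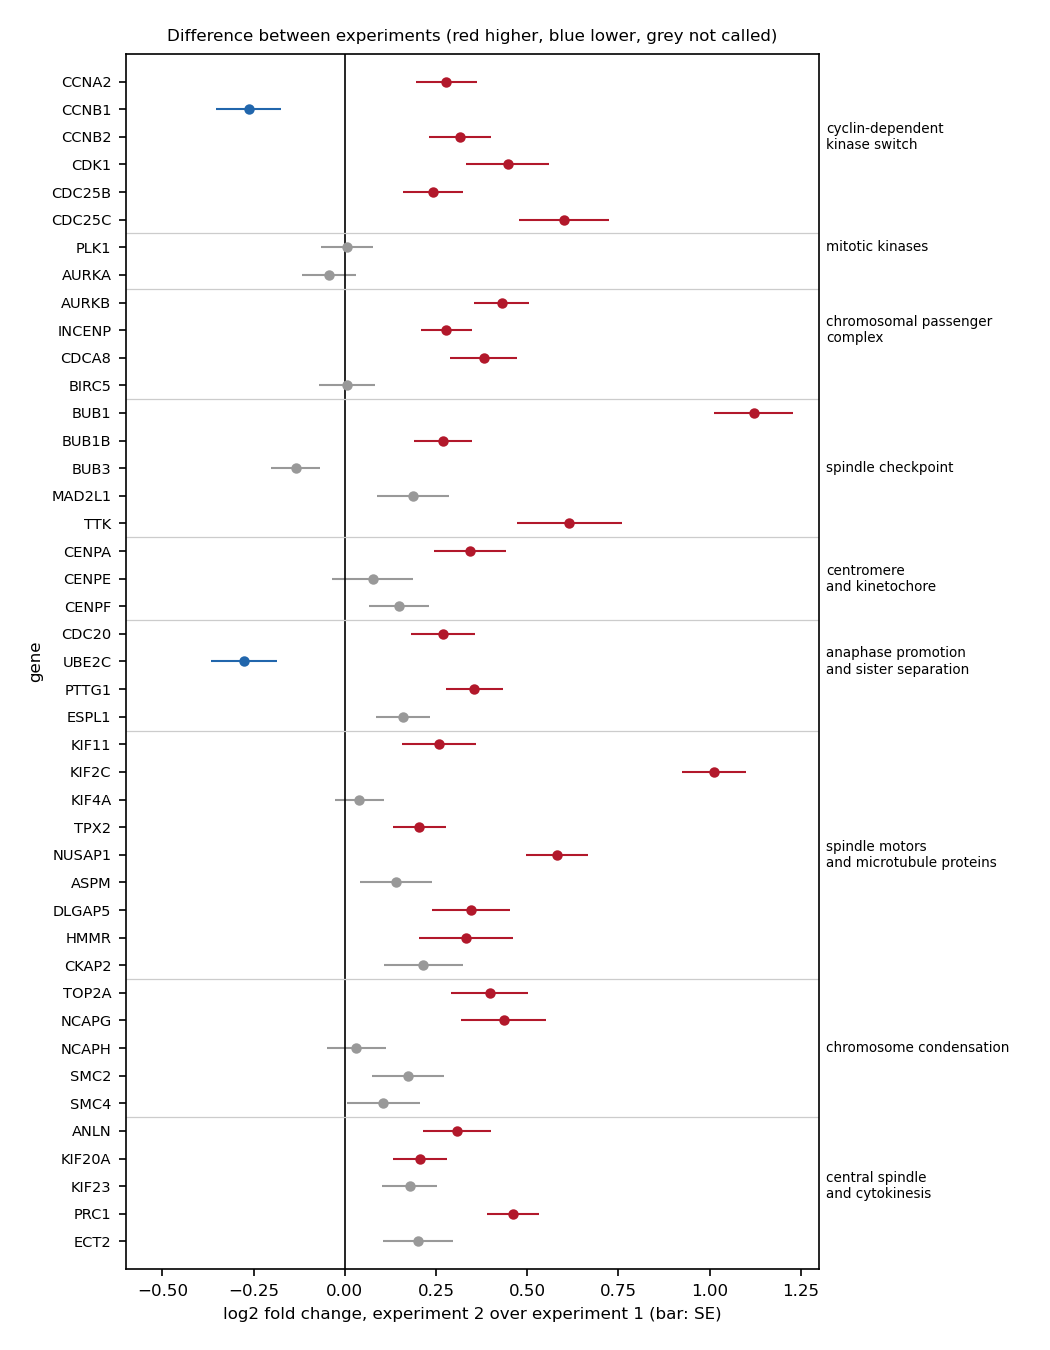
Log2 fold change of each member in experiment 2 against experiment 1 (horizontal axis), grouped by role (rows), with bars of 1 SE either side; red was called higher, blue lower, and grey was not called. KIF2C at 1.01 and BUB1 at 1.12 stand apart from the other members, which run from −0.28 for UBE2C to 0.62 for TTK.

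Which members are called depended on single libraries. Leaving out 1 library at a time gave between 15 calls (without non-targeting library 1) and 34 (without non-targeting library 3), where 47.8% and 61.5% of tested genes were called, against 58.2% with all libraries. The lower calls went to 0 without knockout library 1, knockout library 4 or non-targeting library 2. The 14 members called under every alternative were CCNB2, CDK1, CDC25C, AURKB, INCENP, CDCA8, BUB1, TTK, PTTG1, KIF2C, NUSAP1, TOP2A, NCAPG and PRC1. All 14 are in the group called higher. The share of all tested genes called under every alternative was not computed, so the 14 cannot be set against it.

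**Figure D4:**
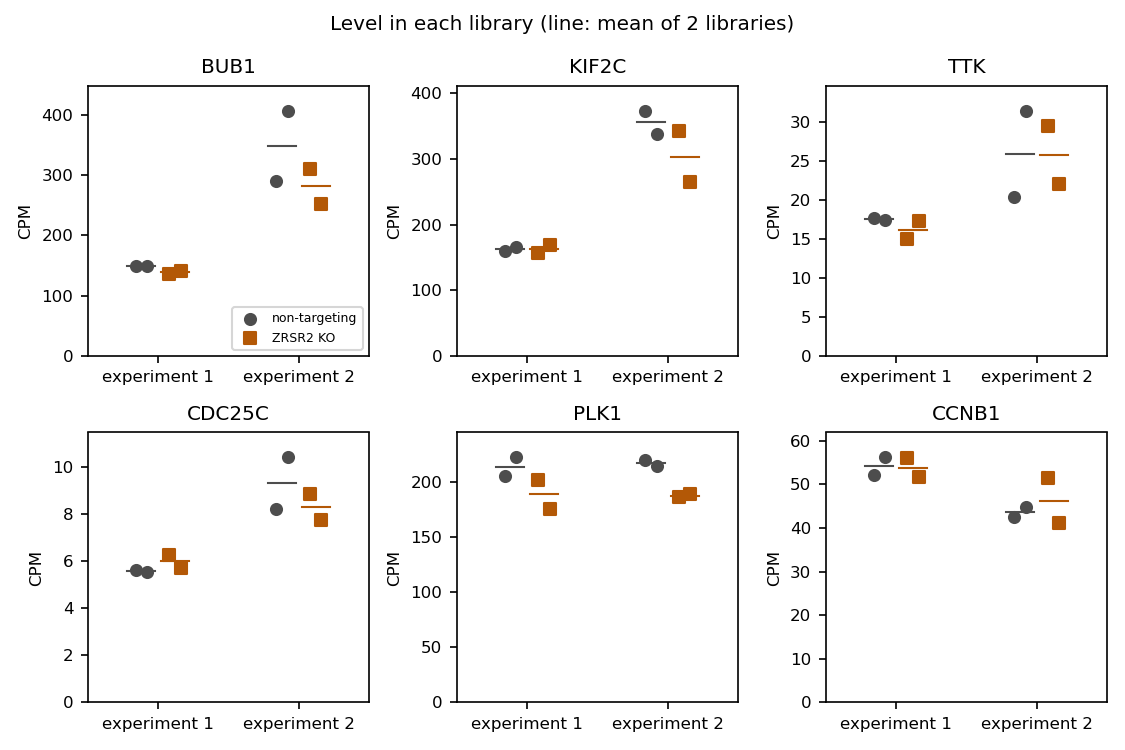
CPM (vertical axes, from 0) of BUB1, KIF2C, TTK, CDC25C, PLK1 and CCNB1 in each of the 8 libraries by experiment, with circles for non-targeting and squares for ZRSR2 KO; each line is the mean of the 2 libraries of a genotype in an experiment. BUB1 and KIF2C sit at 136 to 168 CPM in experiment 1 and 252 to 407 CPM in experiment 2, while the PLK1 points of both experiments share the range from 175 to 222 CPM.

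The members also spread more within experiment 2. The median SD of log2 CPM over the 4 libraries was 0.0712 in experiment 1 and 0.154 in experiment 2, and 38 of 43 members had the larger SD in experiment 2. Non-targeting library 4 held the highest value of 24 members and knockout library 2 the lowest of 21. The same figures over all tested genes were not computed, so they are not shown to be particular to the members. In experiment 2 the summed CPM of the members was 4759 and 4120 in knockout guides 1 and 2 and 4679 and 5092 in non-targeting guides 1 and 2. Within that experiment the order did not follow genotype, since the knockout guide 1 library exceeded 1 of the control libraries.

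Other lists of the cell cycle held calls in both directions, as did all tested genes, of which 29.6% were called higher and 28.6% lower. Of 105 further mitotic genes, 32 rose and 18 fell in experiment 2, with a median log2 fold change of 0.11. The largest called changes were MAD2L2, a relative of MAD2 (1.06, SE 0.116), and the centrosome kinase NEK2 (0.92, SE 0.0978) upward, and STAG1, a cohesin subunit (−0.72, SE 0.081), and CENPN, a centromere protein (−0.66, SE 0.0834), downward. Of 15 genes of the anaphase-promoting complex and its partners outside the members, 1 rose and 4 fell. Of the 42 DNA replication genes, 7 rose and 16 fell, with a median of −0.094. They include a rise of RFC1 (0.80) and ORC1 (0.51) and a fall of CCNE2 (−0.83) and CCNE1 (−0.78), the E-type cyclins of S-phase entry.

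The genes that are known to drive or restrain transcription of the members gave no single direction. Of 15 such regulators, 5 rose and 4 fell, where 29.6% of all tested genes were called higher and 28.6% lower. FOXM1 measured 158, 152, 153 and 157 CPM in experiment 1 and 175, 161, 191 and 161 CPM in experiment 2 and was not called (0.15, SE 0.0749, adjusted p 0.111). MYBL2 measured 222, 197, 216 and 224 CPM and then 212, 199, 240 and 187 CPM and was not called (−0.035, SE 0.0868, adjusted p 0.752). RBL2 (p130), a repressor of cell cycle genes in resting cells, rose by 0.78 and TFDP1 by 0.47, whereas E2F4 changed by −0.87 and RBBP4 by −0.37. Among 5 tested inhibitors of cyclin-dependent kinases, CDKN1C (2.38) and CDKN1B (0.45) rose while CDKN1A (−1.04) and CDKN2D (−0.33) fell, and CDKN2A and CDKN2B had 0 counts in every library.

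Markers of cell identity also held calls in both directions between the experiments, where 29.6% of all tested genes were called higher and 28.6% lower. The 11 tested megakaryoblast markers included 4 called higher and 2 called lower in experiment 2, with a summed level of 2875 to 3095 CPM in experiment 1 and 2993 to 3743 CPM in experiment 2. Of 12 markers of other blood and tissue cells, 6 were tested, 2 called higher and 1 lower, with a summed level of 150 to 170 CPM and then 168 to 206 CPM. CD79A, a B-cell receptor protein, measured 10.3 to 11.5 CPM in experiment 1 and 32.4 to 51.1 CPM in experiment 2 (log2 fold change 1.80, SE 0.106, adjusted p 8.39e-07). The epithelial adhesion protein EPCAM measured 3.59 to 6.41 and then 11.8 to 21.1 CPM (1.58, SE 0.214, adjusted p 0.000109), and the keratin KRT18 went from 10.7 to 14.9 down to 3.26 to 6.12 CPM (−1.55, SE 0.157, adjusted p 1.65e-05). PECAM1, which megakaryocytic cells also express, was not called, at 111 to 141 CPM over all libraries. MS4A1 was at 0 in every library, and CD3E and MPO reached at most 0.0713 CPM. The part of these markers in the members' differences was not tested.

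Members with and without a CHR, counted as TTTGAA or TTCGAA only, were both found among those that rose between experiments. Of 28 members with a CHR, 18 rose and none fell, with a median log2 fold change of 0.27. Of 9 members with a matched promoter and no CHR of these letters, 5 rose and 1, CCNB1, fell, with a median of 0.22. KIF2C was among those without a CHR in this window, and PLK1, KIF4A and CENPF among those that had one and were not called. No test of the difference was made.

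The genes whose profile over the 8 libraries was closest to the mean profile of the members were C15orf57 (Pearson r 0.995), DEPDC1 (0.989), USP25 (0.989), RACGAP1 (0.986) and RAB8B (0.985), of 14855 genes compared. The 8 points share the 2 experiments, so these coefficients describe the step between experiments as much as any finer pattern.

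Knockout of ZRSR2 gave no call among the members. None of the 43 passed the adjusted threshold in the edgeR fit with genotype alone, in the blocked fit, which adds the experiment as a term, or in DESeq2. Of all tested genes, 0% were called in both edgeR fits. DESeq2 called 0.0268% of them with genotype alone and 0.208% with the block. At an unadjusted p under 0.05, 1 member passed with genotype alone and 6 with the block, all lower in knockout. Of all tested genes, 0.362% were lower at that level with genotype alone and 3.17% in the blocked fit. The direction was uneven with genotype alone: 40 of 43 members had a log2 fold change below 0, compared with 51.3% of all tested genes, with a median of −0.078. The 3 members above 0 were CCNB1, MAD2L1 and SMC2. These log2 fold changes share the same 8 libraries, so the members are not 43 separate observations. In simulated counts for this comparison over 14786 genes, the fit with genotype alone recovered 0% of 1.2-fold changes and 2% of 1.5-fold changes, and the blocked fit 6% and 88%.

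PLK1 was the only member with all 4 knockout libraries below all 4 non-targeting libraries, a pattern held by 0.376% of tested genes, and no member had the opposite pattern (0.302%). Its knockout libraries 1 to 4 measured 202, 175, 186 and 189 CPM and its non-targeting libraries 205, 222, 220 and 214 CPM. The means were 188 ± 10.9 and 215 ± 7.65 CPM (SD, n = 4 each). The gap between the groups was small beside the spread, and the log2 fold change with the block was −0.20 (SE 0.066, unadjusted p 0.0115, adjusted p 0.894 in edgeR). KIF20A measured 50.4, 47.1, 53.9 and 55.6 CPM in knockout and 54.0, 55.3, 61.1 and 68.6 CPM in non-targeting libraries, with a blocked log2 fold change of −0.20 (SE 0.0694, unadjusted p 0.0122, adjusted p 0.894). INCENP measured 112, 99.7, 122 and 127 CPM against 113, 118, 147 and 143 CPM, with −0.18 (SE 0.0655, unadjusted p 0.0197, adjusted p 0.977). In both genes the groups overlapped across experiments but not within one. Exons of KIF20A overlap those of BRD8 and CDC23 on the opposite strand, and without a stated strand setting their reads cannot be told apart.

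The members with values above 0 were close to it. CCNB1 had a blocked log2 fold change of 0.036 (SE 0.0839, adjusted p 1.00), MAD2L1 of 0.036 (SE 0.0926) and SMC2 of 0.029 (SE 0.0923). SMC2 measured 42.6, 52.2, 59.4 and 50.5 CPM in knockout libraries 1 to 4 and 47.6, 48.0, 47.6 and 57.4 CPM in non-targeting ones, and MAD2L1 27.9, 32.3, 39.6 and 30.9 CPM against 29.8, 30.6, 32.3 and 34.7 CPM. Knockout guide 1 was lowest in experiment 1 and highest in experiment 2 for both.

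Within experiment 1, 41 of 43 members were below 0 in knockout, compared with 49.4% of tested genes, and the median was −0.073. In experiment 2 the figures were 39 of 43, 49.4% and −0.089. Both knockout libraries were below both controls in each experiment for 6 members, PLK1, INCENP, PTTG1, KIF4A, KIF20A and PRC1, where 3.26% of tested genes showed this. The difference of the knockout effect between the experiments was called for 0 members and 0% of tested genes in edgeR and DESeq2. No member reached an unadjusted p under 0.05 for it in edgeR. Without knockout library 4 the count below 0 in experiment 2 dropped to 21, and without non-targeting library 4 it dropped to 22. Over all 8 libraries it was 23 without non-targeting library 4, and 29 in the blocked fit without that library.

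**Figure D5:**
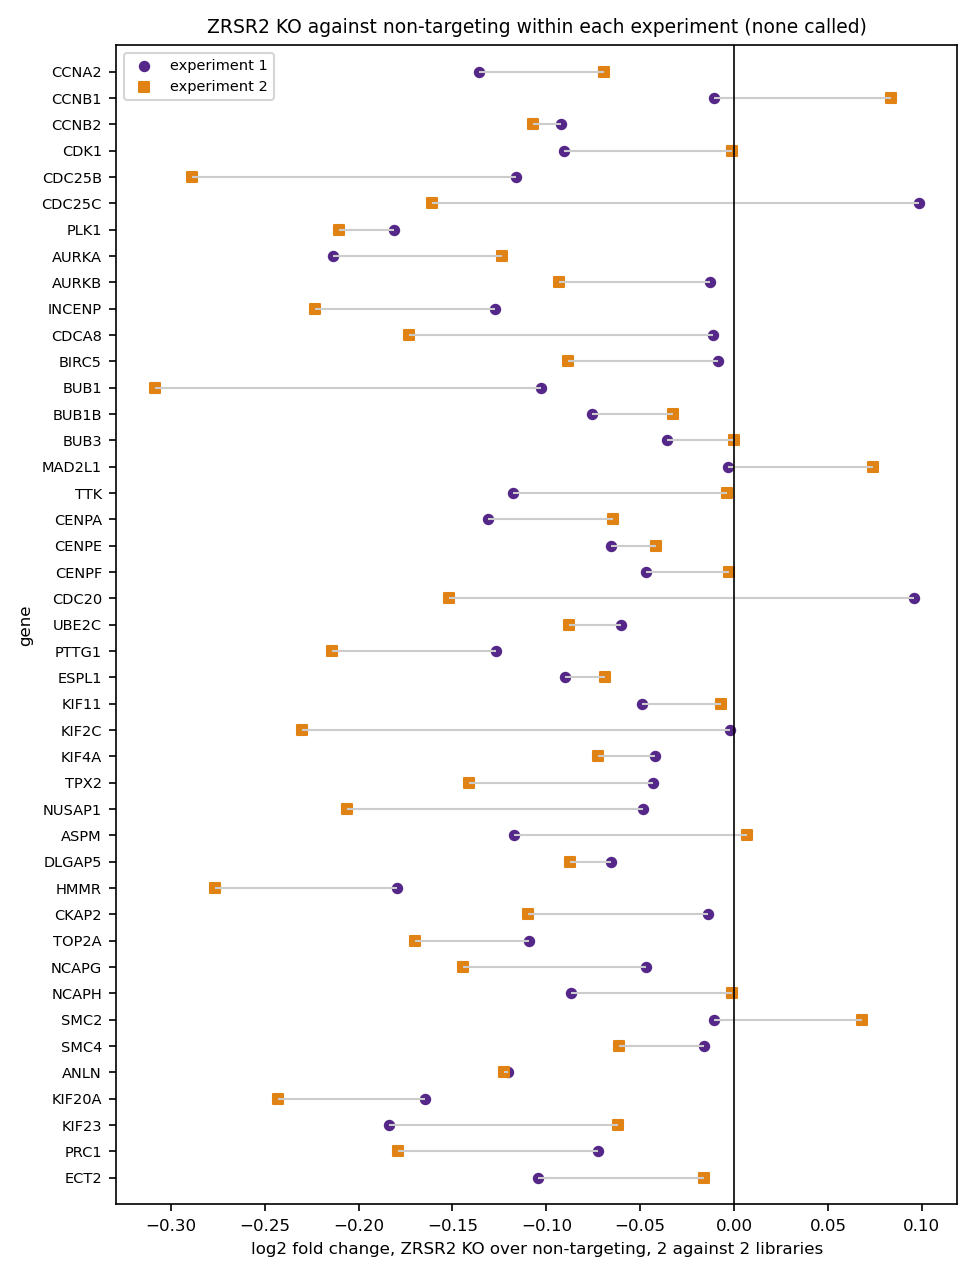
Log2 fold change of each member (rows) in ZRSR2 KO against non-targeting libraries (horizontal axis), with a circle for experiment 1, a square for experiment 2 and a grey line between them; each point compares 2 libraries with 2 and has no error bar. Most points lie left of 0, the exceptions being CDC25C and CDC20 in experiment 1 and CCNB1, MAD2L1, SMC2 and ASPM in experiment 2, and none was called.

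The members lay further below the controls with guide 2 than with guide 1 by their medians, although no single member was called. The knockout guides lay close together in experiment 1 and further apart in experiment 2, with 1 library per guide in each. Summed over the members, guides 1 and 2 gave 3706 and 3631 CPM in experiment 1 and 4759 and 4120 CPM in experiment 2. With guide 2 and without the block, 42 of 43 members were below 0, compared with 53.3% of tested genes, with a median of −0.15. With guide 1 the figures were 25 of 43, 48.9% and −0.023. In the direct comparison of guide 2 with guide 1, 41 of 43 were below 0 (54.3% of tested genes) with a median of −0.14. No member was called in any of the 3 comparisons by edgeR or DESeq2. Without the block, DESeq2 called 0.0134% of tested genes for guide 2 and 0% for guide 1 or between the guides. EdgeR without the block called 0% of tested genes in each, and no member had an unadjusted p under 0.05 there. In the blocked fit 6 members reached that level for guide 2 (2.44% of tested genes were lower at it), among them AURKA (−0.25, SE 0.096), PLK1 (−0.24, SE 0.0951) and HMMR (−0.34, SE 0.148). That blocked fit called 0.0268% of tested genes higher and 0.0403% lower for guide 2, among the latter ZRSR2 (adjusted p 0.0118).

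Relative to the mean of the 4 controls, the guide 2 libraries averaged 77.5% for HMMR, 79.0% for BUB1, 84.3% for AURKA and 84.6% for PLK1. The same members averaged 92.3%, 89.9%, 93.6% and 90.0% with guide 1. They are among the lowest members with guide 2, with which SMC2 averaged 102% and MAD2L1 99.2%. For BUB1, guide 2 measured 141 CPM beside a control mean of 149 CPM in experiment 1. In experiment 2 it measured 252 CPM beside a control mean of 349 CPM. Both guide 2 libraries were below all 4 controls for 6 members, PLK1, AURKA, KIF4A, HMMR, NCAPH and ECT2, where 2.21% of tested genes were. The 2 guides share the same controls, and each rests on 1 library per experiment. Without the block, leaving out knockout library 3 reduced the count below 0 in guide 2 against guide 1 from 41 to 13. Guide 1 is then left in experiment 1 only, so that fit does not separate guide from experiment. With the block, that count was 32 to 42 whichever library was left out. Leaving out knockout library 1 reduced the count of guide 1 against controls from 25 to 9 without the block. Guide 1 is then left in experiment 2 only, and with the block the count was 16.

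The other lists were set beside the members in the knockout comparison over all libraries. Of the 105 further mitotic genes 66.7% were below 0, with a median of −0.027, and of the 42 DNA replication genes 40.5%, with a median of 0.026. None of these genes was called in the fit with genotype alone.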

How the data were processed

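Expected counts per gene were deposited by the authors as 1 table of 8 libraries; per the submitters' processing notes, cutadapt 1.11, RSEM 1.2.30 and hg19 were used. The aligner, annotation and use of strand are not given in the sources used here. RSEM shares reads between similar transcripts by probability, so genes with overlapping exons or close copies are less certain: 16 members overlap another gene's exons in GENCODE 29, 4 on the same strand (BUB1B, CENPA, NUSAP1, PRC1) and 13 on the opposite one. The expected counts were whole numbers, and 0 columns belonged to other samples. The depth per library sets the precision; intervals from it would cover counting error only.

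Genes were filtered with filterByExpr on genotype and scaled with TMM. The main test was the quasi-likelihood F test of edgeR 4.0.16 (limma 3.58.1, R 4.3.3) with Benjamini-Hochberg adjustment over 14898 genes and a threshold of 0.05. Knockout was fitted with genotype alone; the experiments were compared in 1 model of the 4 combinations of genotype and experiment, and the guides in 1 model of the 4 guides. Standard errors came from the F statistic, and log2 CPM used a prior count of 2. Figures used Python 3.11.15 with matplotlib 3.10.9.

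Deviations from genotype means correlated at 0.678 to 0.846 between knockout and control libraries of the same experiment and at −0.816 to −0.709 between experiments, so the experiment was taken as pairing the samples. Only the blocked fits use this pairing. The fit with genotype alone and the guide fits without the block leave it out. Libraries of the same guide construct in different experiments correlated at −0.0275 to 0.0576, and the construct was not taken as pairing. No 2 libraries agreed within sampling noise (smallest chi-square per degree of freedom 2.66). In simulated counts for experiment 2 against 1 over 14792 genes, the test recovered 14% of 1.2-fold, 92% of 1.5-fold and 100% of 2-fold changes.

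Alternatives were the scaling and test of DESeq2 1.42.0, no count filter, at least 10 counts in every library, the block and leaving out each library. Members and lists were chosen with earlier results of these data known. Values in every library are given for the largest and smallest change in each role, the 5 largest of all members, the 3 lowest unadjusted p per direction in the blocked knockout fit, and CDK1, CCNB1, PLK1 and ECT2 (UBE2C was added after its values were seen, as 1 of 2 lower calls); from other lists, the 2 largest called changes per direction.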

Additional observations from a re-analysis of the deposited data

Results flagged for a closer look

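Of 112 groups of 4 libraries examined, 4 held a library that stood apart from the other 3, with a gap larger in share of the group's range than Dixon's critical value for 4 values, where chance would give about 5.6. KIF4A measured 71.6 CPM in knockout library 2, and 75.3 to 75.7 CPM in the other libraries of experiment 1. TTK measured 14.99 CPM in knockout library 1, and 17.3 to 17.6 CPM in the other libraries of experiment 1. SMC2 measured 57.4 CPM in non-targeting library 4, and 47.6 to 48.0 CPM in the other non-targeting libraries. ECT2 measured 26.1 CPM in knockout library 3, and 19.7 to 20.6 CPM in the other knockout libraries.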

How the results depend on the processing

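There were 78 results and 1116 alternative values. Of these values 1004 were labelled the same, 51 lost the call, 15 gained it, 28 counts or values moved and 18 changed sign. For single genes, the same meant the same side of 0 and of the threshold. For counts it meant a limited ratio to the main value. For median log2 fold changes it meant a shift smaller than a reference spread between libraries. All sign changes came from leaving out 1 library, in values near 0. Between experiments the log2 fold change then ran from −0.043 to 0.060 for PLK1, −0.090 to 0.0049 for AURKA, −0.041 to 0.056 for BIRC5, −0.062 to 0.19 for CENPE, −0.023 to 0.087 for NCAPH, −0.033 to 0.22 for SMC4 and −0.13 to 0.044 for MYBL2. In knockout against non-targeting it ran from −0.029 to 0.12 for CCNB1, −0.067 to 0.10 for MAD2L1 and −0.049 to 0.11 for SMC2. With 1 library left out, members called between experiments numbered 15 to 34, 14 to 31 higher and 0 to 3 lower, while 47.3% to 61.5% of all tested genes were called. Members below 0 numbered 23 to 43 for knockout and 21 to 43 within experiment 2. For guide 1 they numbered 9 to 39 (16 to 37 with the block). For guide 2 against guide 1 they numbered 13 to 41 (32 to 42 with the block). Without the block, leaving out a library of a knockout guide leaves that guide in 1 experiment, so guide and experiment are not separated. The cause of these ranges was not tested.

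Outside those, CKAP2 was called between experiments with no count filter (adjusted p 0.0311) and KIF23 with at least 10 counts in every library (adjusted p 0.0478), in edgeR. DESeq2 called 27 members between experiments, where it called 56.6% of all tested genes. With the guide construct as a replicate block 25 members were called higher and 2 lower, as without it. Of all tested genes, 29.6% were called higher and 29.2% lower in that fit. The construct does not pair the libraries. With the experiment as a replicate block, 0 members were called for knockout or either guide, as without it. Leaving out libraries in the blocked fits was chosen after seeing the data. Where 1 library remained in an arm, it was assumed to vary like the other groups.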
